A study of Homo sapiens with 6 samples.

Results

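A set of 34 genes of cholesterol metabolism was followed in HEK293, a long-established human line derived from embryonic kidney, among 60675 genes counted by total RNA sequencing. The genes were chosen by name for their place in sterol biology, with earlier results of these data known: 8 enzymes of the mevalonate pathway, 3 enzymes from squalene to lanosterol, 9 enzymes from lanosterol to cholesterol, 6 genes that control sterol regulatory element-binding proteins (SREBPs), 4 genes of uptake and intracellular trafficking, and 4 genes of efflux and storage. Of the 34, 33 had enough reads to be tested, among 18267 genes tested in all, and the exception was ABCA1. The study compared 3 libraries labelled MOCS2 RNAi knockdown with 3 libraries labelled control and wild type. All 6 came from HEK293 cells grown in high-glucose DMEM with fetal bovine serum and Geneticin. The title of the study ties sulfur amino acid breakdown to the processing of APP, the amyloid precursor protein, and MOCS2 encodes both subunits of molybdopterin synthase. The labels name no RNAi construct and do not say whether the line was 1 clone or whether replicates came from separate cultures. The p-values therefore reflect only the spread among these 6 samples, which may be technical. In bulk RNA, fewer cells that express a gene and less of its RNA per cell cannot be told apart.

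Cells make cholesterol from acetyl-CoA. The mevalonate pathway yields farnesyl diphosphate, which is either joined into squalene for sterols or used for other isoprenoids such as prenyl anchors, dolichol and coenzyme Q. When membrane cholesterol is low, SCAP escorts SREBP2 from the endoplasmic reticulum to the Golgi, where 2 proteases release its transcription factor part; when sterols are plentiful, INSIG proteins hold SCAP back. Released SREBP2 activates most genes of the sterol pathway and of sterol uptake, including its own gene. Lipoprotein cholesterol in serum lowers this activity in cultured cells.

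RNA of the targeted gene, MOCS2, did not separate the groups. It stood at 69.8, 58.9 and 59.9 CPM (read counts scaled to library size with TMM factors) in knockdown 1, 2 and 3, against 57.8, 66.6 and 65.6 CPM in control 1, 2 and 3 (edgeR log2 fold change -0.01 with 95% interval -0.33 to 0.31, adjusted p = 0.976). The groups overlapped, so higher and lower refer to the labels, with no loss of the target's RNA measured here. Reads in genes ranged from 17958632 to 19362299 in the libraries labelled knockdown and from 19895547 to 22171106 in the controls. Reads that fell in no gene made up 37.5% of the uniquely aligned reads in knockdown 2, and 21.5% to 25.0% in each of the remaining libraries. All 7 HEK293 markers (VIM, KRT8, KRT18, NEFM, NEFL, INA and PAX2) passed the filter, and PAX2 was the lowest at 0.905 to 1.62 CPM over the 6 libraries. Their summed level was 1795 to 2524 CPM in the libraries labelled knockdown and 1280 to 1784 CPM in the controls, without overlap. VIM, the highest of them, averaged 1277 CPM in the libraries labelled knockdown and 805 CPM in the controls (log2 fold change 0.67). Log2 fold changes of the others were 0.94 for INA, 0.19 for KRT8, 0.13 for KRT18, 0.09 for NEFM, -0.19 for PAX2 and -0.36 for NEFL. VIM and NEFL did not overlap between the groups. Summed levels of 4 hepatocyte markers reached at most 0.585 CPM in the libraries labelled knockdown and 0.403 CPM in the controls, and those of 4 steroid-producing cell markers at most 2.5 CPM in the libraries labelled knockdown and 1.61 CPM in the controls. The sum of 5 fibroblast markers was 8.24 to 12.5 CPM in the libraries labelled knockdown and 14.9 to 23.5 CPM in the controls. That difference lay in LUM, with means of 1.90 CPM in the libraries labelled knockdown and 11.9 CPM in the controls. COL1A1 averaged 6.66 CPM in the libraries labelled knockdown and 5.82 CPM in the controls, and COL1A2, DCN and PDGFRB averaged under 1 CPM in each group. The sum of 4 blood cell markers was 2.74 to 3.03 CPM in the libraries labelled knockdown and 2.25 to 3.69 CPM in the controls. No marker was at 0 in all libraries, and the part of marker levels and of reads outside genes in the results below was not tested.

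Sterol genes were on the whole lower in the libraries labelled knockdown, and none passed the test over all genes on 6 libraries. The median log2 fold change of the 33 tested genes was -0.48, beside 0.02 for all tested genes, and 29 had a negative value, where 48.2% of all tested genes did, and 4 a positive one (51.8%). edgeR called 0 of them lower and 0 higher at an adjusted p of 0.05, as for the background of 0% of all genes. At an unadjusted p of 0.05, 16 were lower, where 10.6% of all tested genes were, and 0 were higher, where 9.93% were. At 0.01, 10 were lower, against a background of 3.84%, and 0 higher, against 3.51%. Values of the 2 groups did not overlap in 15 genes that lay below the controls, against 14.3% of all genes, and in 0 that lay above, against 12.5%. DESeq2, run on the same counts, called 9 lower (background 3.21%) and 0 higher (background 3.06%), and limma voom called 0 in either direction (background 0%). With no filter on low counts edgeR called 13 of 34 lower (background 2.03%) and 0 higher (background 1.6%). The result over all genes depended on knockdown 3: without that library edgeR called 14 sterol genes lower (background 8.3%) and 0 higher (background 6.46%).

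**Figure D1:**
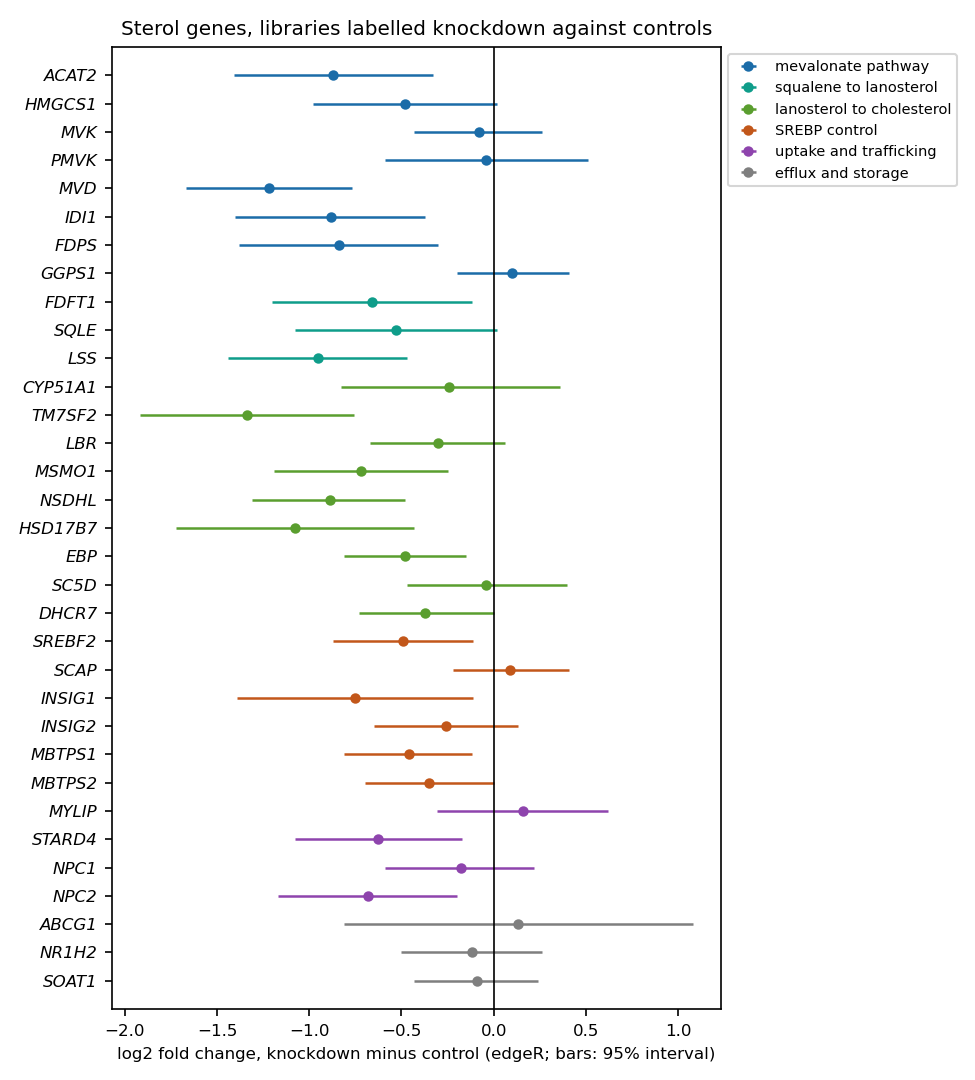
Log2 fold change of each of the 33 tested sterol genes (horizontal axis, libraries labelled knockdown minus controls; points, edgeR estimates; bars, 95% intervals), grouped by role. The intervals of 16 genes lie wholly below 0 and those of the 3 efflux and storage genes all span 0.

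Summed levels of the genes lay in the same direction. All 34 genes together took 2622, 2559 and 3228 CPM in knockdown 1, 2 and 3, against 3934, 4486 and 3424 CPM in control 1, 2 and 3. The sums did not overlap, and knockdown 3 and control 3 were the nearest. The ratio of the group means (knockdown over control) was 0.655 for the mevalonate enzymes, 0.628 for the enzymes from squalene to lanosterol, 0.763 from lanosterol to cholesterol, 0.698 for SREBP control, 0.794 for uptake and trafficking and 0.938 for efflux and storage. Sums of the mevalonate enzymes and of the enzymes from lanosterol to cholesterol did not overlap between the groups, and those of the other 4 roles did. Abundant genes weigh most in such sums. In SREBP control, INSIG1 alone made up 246 of 613.5 CPM in the libraries labelled knockdown and 413.2 of 878.9 CPM in the controls.

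Individual libraries differed within each group. The median deviation of the 33 genes from the control mean, in log2 CPM, was -0.57, -0.56 and -0.38 in knockdown 1, 2 and 3, and -0.03, 0.14 and -0.08 in control 1, 2 and 3, while the median over all tested genes lay between 0 and 0.01 in every library. For the mevalonate enzymes the medians were -0.58, -1.06 and -0.31 in knockdown 1, 2 and 3, so knockdown 2 was the lowest and knockdown 3 the nearest to the controls. Among the libraries labelled knockdown, knockdown 3 was the highest for 20 of the 33 genes, where it was the highest for 33.0% of all tested genes. Among the controls, control 2 was the highest for 23 of the 33 (34.3% of all tested genes) and control 3 the lowest for 18 (34.2%). The median SD of log2 CPM over the sterol genes was 0.277 in the libraries labelled knockdown and 0.179 in the controls, while over all tested genes it was 0.311 in the libraries labelled knockdown and 0.161 in the controls.

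**Figure D2:**
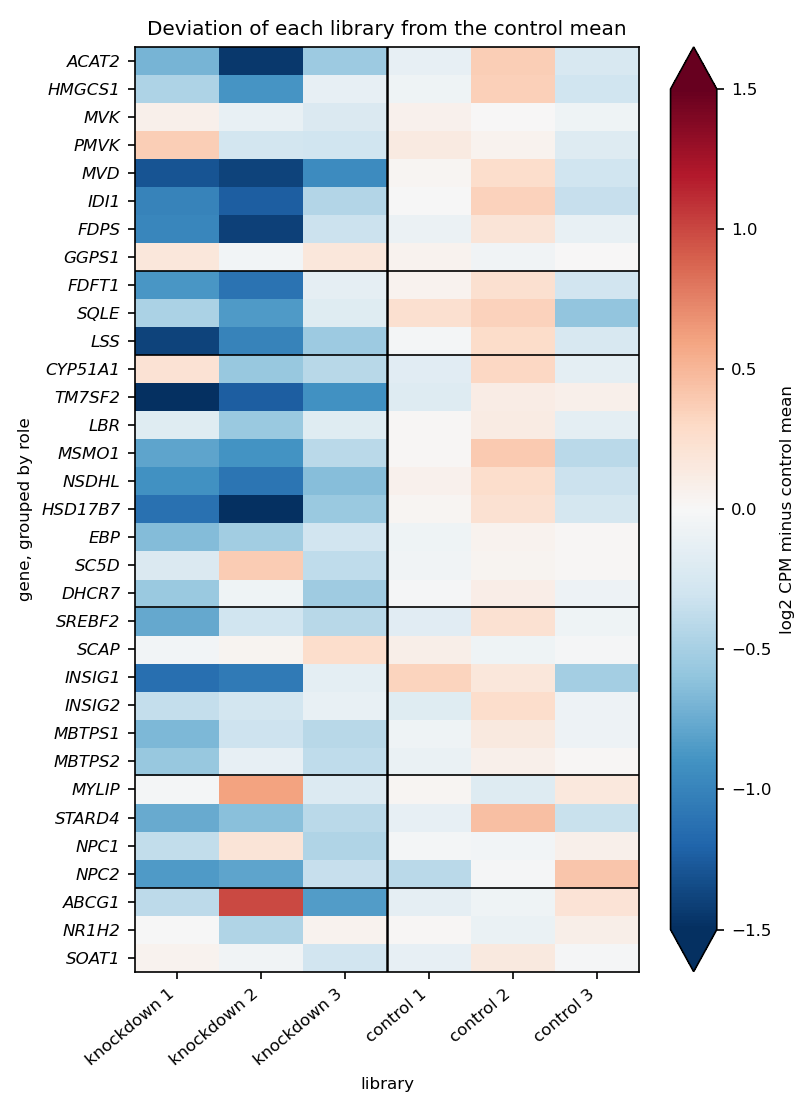
Log2 CPM of each tested sterol gene (rows, grouped by role) in each library (columns) minus the mean of the 3 controls; the darkest colours also cover values beyond the scale. Blue dominates the 3 columns labelled knockdown in the synthesis rows, control 2 is pale red in most rows, and SC5D, MYLIP, NPC1 and ABCG1 are red in knockdown 2.

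Promoters of these genes were read for the sterol response element (SRE), to which SREBPs bind. They were also read for the CCAAT box, the site of NF-Y, a factor with which SREBPs cooperate. RefSeq promoter sequences (GRCh38.p14, 250 bases before to 50 after a transcription start) were found for 30 of the 34 genes, in 39 entries, and not for ACAT2, FDFT1, SQLE and ABCG1. Upstream bases are shown for SREBF2, the gene of SREBP2, and for MVD, TM7SF2, NSDHL and LSS, the 4 genes of smallest p among those with 1 entry. Each stretch ends where the gene begins in GENCODE 29, which for all 5 genes lies upstream of the RefSeq start. They read 5′ to 3′ on the strand of the gene, and capitals mark the SRE, searched as TCACNCCAC, and CCAAT boxes (CCAAT, or ATTGG where the box lies on the other strand).
SREBF2: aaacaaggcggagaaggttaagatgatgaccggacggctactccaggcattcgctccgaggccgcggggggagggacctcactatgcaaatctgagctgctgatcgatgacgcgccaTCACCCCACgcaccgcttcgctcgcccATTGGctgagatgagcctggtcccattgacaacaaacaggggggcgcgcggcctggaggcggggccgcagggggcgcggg
MVD: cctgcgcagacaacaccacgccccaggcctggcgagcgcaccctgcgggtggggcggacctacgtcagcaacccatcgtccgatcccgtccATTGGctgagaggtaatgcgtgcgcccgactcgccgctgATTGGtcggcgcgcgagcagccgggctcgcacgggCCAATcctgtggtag
TM7SF2: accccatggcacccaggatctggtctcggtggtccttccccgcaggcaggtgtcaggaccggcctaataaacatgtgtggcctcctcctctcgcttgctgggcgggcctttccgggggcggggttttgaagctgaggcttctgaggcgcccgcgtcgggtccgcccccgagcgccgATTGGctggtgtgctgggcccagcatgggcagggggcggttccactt
NSDHL: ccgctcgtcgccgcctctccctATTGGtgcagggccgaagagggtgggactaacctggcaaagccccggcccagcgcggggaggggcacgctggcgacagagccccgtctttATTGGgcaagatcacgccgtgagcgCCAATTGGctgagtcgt
LSS: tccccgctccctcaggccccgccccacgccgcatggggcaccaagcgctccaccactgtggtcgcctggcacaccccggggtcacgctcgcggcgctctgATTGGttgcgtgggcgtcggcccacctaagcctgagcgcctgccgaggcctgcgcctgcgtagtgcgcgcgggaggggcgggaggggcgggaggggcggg
These stretches lie at chr22:41832855-41833078 (plus strand) for SREBF2, chr16:88663162-88663341 (minus strand) for MVD, chr11:65111622-65111844 (plus strand) for TM7SF2, chrX:152830813-152830966 (plus strand) for NSDHL and chr21:46228825-46229024 (minus strand) for LSS. In GENCODE 29 (hg38) the genes that follow them span chr22:41833079-41907308 (SREBF2, ENSG00000198911), chr16:88651935-88663161 (MVD, ENSG00000167508), chr11:65111845-65116384 (TM7SF2, ENSG00000149809), chrX:152830967-152869729 (NSDHL, ENSG00000147383) and chr21:46188141-46228824 (LSS, ENSG00000160285).

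SREBF2 was the only one of the 30 genes whose promoter entry held the letters TCACNCCAC on either strand, beginning at position -133 from the RefSeq transcription start, with a CCAAT box on the other strand at -106. These letters occurred in 396 of all 35116 promoters (1.13%) and in 1.39% of all genes with an entry. The search matched this string only, so elements spelled with other letters would be missed. The CCAAT box was more common. On either strand it occurred in 34.6% of all promoters and 39.7% of all genes with an entry, and in 20 of the 30 sterol genes. It was found in 13 of the 14 sterol genes with an entry and an unadjusted p under 0.05, and in 7 of the other 16. The other 16 include ABCA1, which was not tested, and a gene with more than 1 entry counted if any held the box. This split uses p-values of the same data, and a link between motif and level was not tested. Before the RefSeq start, MVD held 3 boxes and NSDHL 5, of which 4 lie in the stretch shown and a pair overlap as CCAATTGG, while SREBF2, TM7SF2 and LSS held 1 each. The GC box GGGCGG, a site of Sp1, occurred in 26 of the 30 genes, and in 48.3% of all genes with an entry. It was found in 12 of the same 14 genes and in 14 of the other 16. These counts describe letters in a fixed window, and binding was not measured.

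Among the genes of SREBP control, SREBF2 and INSIG1 had lower means in the libraries labelled knockdown while SCAP did not. SREBF2 stood at 64.0, 89.1 and 82.3 CPM in knockdown 1, 2 and 3, against 97.2, 128 and 105 CPM in control 1, 2 and 3 (log2 fold change -0.49, standard error (SE) 0.17, edgeR adjusted p = 0.158). All 3 libraries labelled knockdown lay below all controls. SCAP, the escort protein, stood at 73.4, 77.7 and 91.1 CPM in knockdown 1, 2 and 3 against 80.2, 72.0 and 74.7 CPM in the controls, a log2 fold change of 0.09 with a 95% interval from -0.22 to 0.41. These groups overlapped. INSIG1, the retention protein whose gene is itself an SREBP target, was the member with the highest level per exon length, with means of 67.4 FPKM (CPM per kilobase of exon) in the libraries labelled knockdown and 113 FPKM in the controls. It stood at 183, 193 and 362 CPM in knockdown 1, 2 and 3, and at 507, 451 and 282 CPM in control 1, 2 and 3 (log2 fold change -0.75, SE 0.29, edgeR adjusted p = 0.187). Knockdown 3 exceeded control 3, so the groups overlapped, and without knockdown 3 the log2 fold change was -1.14.

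INSIG2, the second retention protein, whose gene is not a typical SREBP2 target, stood at 18.8, 19.8 and 22.3 CPM in knockdown 1, 2 and 3, against 21.2, 28.9 and 22.9 CPM in the controls (log2 fold change -0.26, 95% interval -0.65 to 0.13). The proteases that cut SREBPs in the Golgi are encoded by MBTPS1, which acts first, and MBTPS2, which releases the active part. MBTPS1 averaged 155.5 ± 19.9 CPM in the libraries labelled knockdown and 214.2 ± 18.9 CPM in the controls (SD, n = 3 each; log2 fold change -0.46), and MBTPS2 32.5 ± 5.1 CPM in the libraries labelled knockdown and 41.4 ± 2.46 CPM in the controls (-0.35). Neither protease gene overlapped between the groups, and the edgeR adjusted p was 0.146 for MBTPS1 and 0.249 for MBTPS2. Over the role, 5 of 6 genes had a negative log2 fold change (48.2% of all tested genes), and 3 were lower at an unadjusted p under 0.05 (10.6%).

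Within the mevalonate pathway, MVD had the smallest p of all sterol genes. It encodes mevalonate diphosphate decarboxylase, which makes isopentenyl diphosphate, and stood at 11.9, 11.1 and 15.2 CPM in knockdown 1, 2 and 3, against 29.7, 35.2 and 23.8 CPM in control 1, 2 and 3 (log2 fold change -1.22, 95% interval -1.67 to -0.77, edgeR adjusted p = 0.0634). The highest library labelled knockdown lay below the lowest control. IDI1, the isomerase of the next step, stood at 90.1, 76.8 and 133 CPM in knockdown 1, 2 and 3 against 181, 230 and 143 CPM in the controls (log2 fold change -0.88, SE 0.23, edgeR adjusted p = 0.105). FDPS, farnesyl diphosphate synthase, stood at 92.4, 68.8 and 146 CPM in knockdown 1, 2 and 3 against 172, 208 and 170 CPM in the controls (log2 fold change -0.84, SE 0.24, edgeR adjusted p = 0.116). For both, knockdown 3 was the nearest to the controls and the groups did not overlap. Each also shares exon bases with an antisense gene, IDI2-AS1 for IDI1 and RUSC1-AS1 for FDPS.

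At the entrance of the pathway, ACAT2, the cytosolic thiolase that joins acetyl-CoA units, stood at 133, 79.0 and 148 CPM in knockdown 1, 2 and 3, against 198, 278 and 182 CPM in the controls (log2 fold change -0.87, SE 0.24, edgeR adjusted p = 0.11). Knockdown 2 was the lowest and control 2 the highest, and its level is uncertain because its exons overlap genes on the opposite strand. HMGCS1, the cytosolic HMG-CoA synthase, stood at 313, 234 and 397 CPM in knockdown 1, 2 and 3 against 415, 554 and 353 CPM in the controls, with overlap through knockdown 3 and control 3 (log2 fold change -0.48, 95% interval -0.98 to 0.02, edgeR adjusted p = 0.257). Without control 2 its log2 fold change was -0.29. The kinases MVK and PMVK, which phosphorylate mevalonate in turn, and GGPS1, which makes geranylgeranyl diphosphate for prenylation, had means close to those of the controls. MVK averaged 24.6 ± 2.59 CPM in the libraries labelled knockdown and 26.1 ± 1.18 CPM in the controls, PMVK 7.74 ± 2.16 CPM in the libraries labelled knockdown and 7.95 ± 0.941 CPM in the controls, and GGPS1 84.1 ± 6.83 CPM in the libraries labelled knockdown and 78.3 ± 2.87 CPM in the controls. Their log2 fold changes were -0.08, -0.04 and 0.10, with 95% intervals from -0.43 to 0.26, -0.59 to 0.51 and -0.20 to 0.41.

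**Figure D3:**
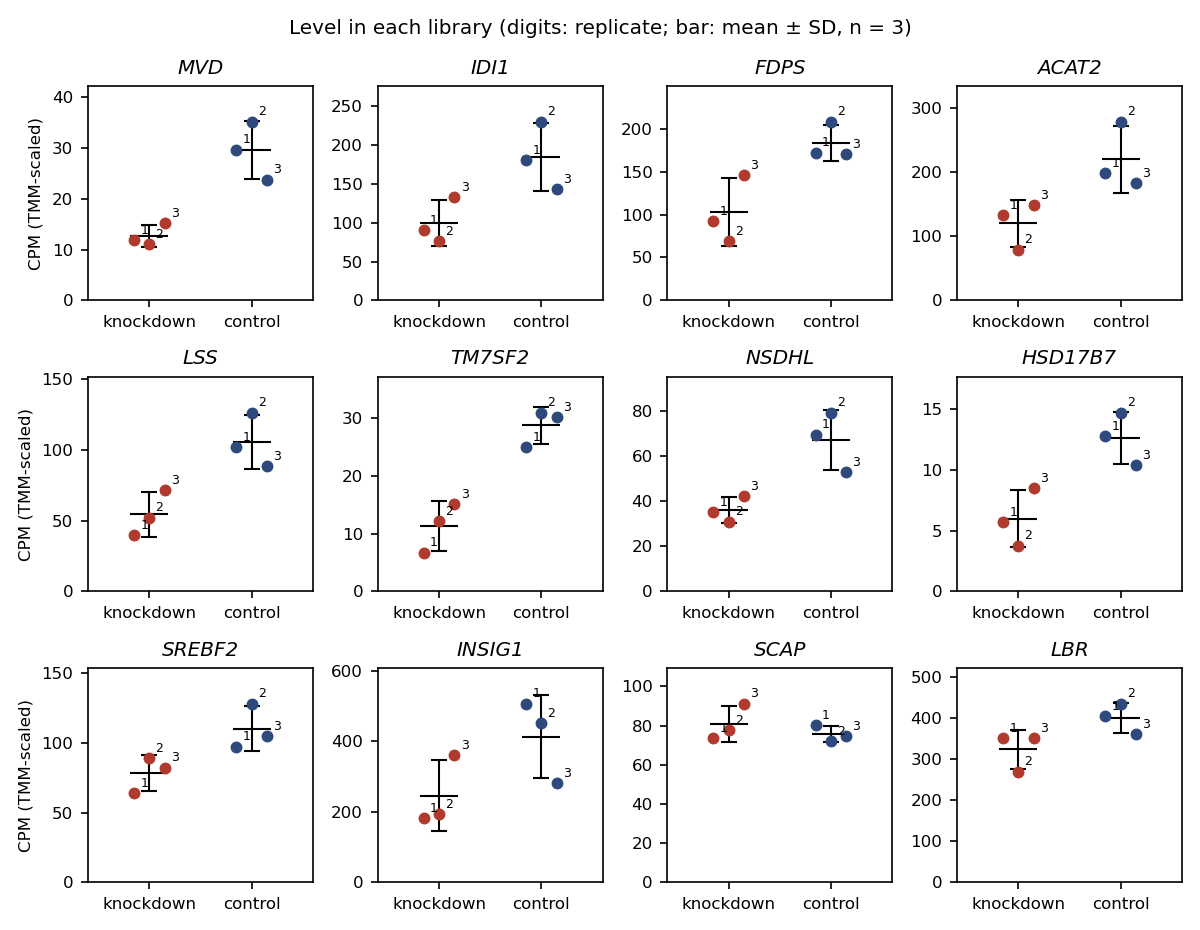
TMM-scaled CPM (vertical axes, each starting at 0) of 12 sterol genes in the libraries labelled knockdown (left, red) and the controls (right, blue); points are libraries with their replicate numbers, bars the mean ± SD (n = 3). The first 8 genes, SREBF2 and LBR do not overlap between the groups. INSIG1 overlaps through knockdown 3 and control 3, and SCAP lies at one level.

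From squalene to lanosterol, LSS was the lowest relative to the controls. LSS, lanosterol synthase, closes the sterol rings and stood at 39.6, 52.1 and 71.2 CPM in knockdown 1, 2 and 3, against 102, 126 and 88.1 CPM in control 1, 2 and 3 (log2 fold change -0.95, 95% interval -1.44 to -0.47, edgeR adjusted p = 0.0895). The groups did not overlap. FDFT1, squalene synthase, averaged 113.7 ± 42.4 CPM in the libraries labelled knockdown and 179.8 ± 32.0 CPM in the controls, and SQLE, squalene epoxidase, 123.1 ± 28.1 CPM in the libraries labelled knockdown and 178.1 ± 56.1 CPM in the controls. Both overlapped between the groups (log2 fold changes -0.66 and -0.53, edgeR adjusted p = 0.173 and 0.257), and without knockdown 3 FDFT1 was at -1.01.

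Between lanosterol and cholesterol all 9 enzymes had a negative log2 fold change, from -1.34 for TM7SF2 to -0.04 for SC5D, and 5 were lower at an unadjusted p under 0.05. Over all tested genes, 48.2% were negative and 10.6% lower at that level. TM7SF2, a sterol reductase that removes the double bond left after demethylation of lanosterol, stood at 6.73, 12.1 and 15.1 CPM in knockdown 1, 2 and 3, against 25.0, 30.9 and 30.2 CPM in the controls (95% interval -1.92 to -0.76, edgeR adjusted p = 0.0767). LBR, the lamin B receptor of the inner nuclear membrane, carries the same reductase activity and stood at 351, 270 and 352 CPM in knockdown 1, 2 and 3 against 404, 435 and 361 CPM in the controls (log2 fold change -0.30, 95% interval -0.67 to 0.06, and -0.19 without knockdown 2). LBR was thus the more abundant of these enzymes, with 61.7 FPKM in the libraries labelled knockdown and 76.1 FPKM in the controls. TM7SF2 had 3.32 FPKM in the libraries labelled knockdown and 8.42 FPKM in the controls. Neither TM7SF2 nor LBR overlapped between the groups.

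The demethylation steps had values in the same direction. NSDHL, a sterol dehydrogenase of this complex, stood at 35.1, 30.9 and 42.3 CPM in knockdown 1, 2 and 3, against 69.4, 79.1 and 52.7 CPM in the controls (log2 fold change -0.89, 95% interval -1.31 to -0.48, edgeR adjusted p = 0.0783). HSD17B7, the sterol ketoreductase that completes the removal, stood at 5.71, 3.77 and 8.49 CPM in knockdown 1, 2 and 3 against 12.8, 14.7 and 10.4 CPM in the controls (log2 fold change -1.08, SE 0.29, edgeR adjusted p = 0.107). Neither overlapped between the groups, and reads of HSD17B7 may be split with its 2 named pseudogenes. MSMO1, the methyl sterol oxidase, stood at 50.7, 47.1 and 66.2 CPM in knockdown 1, 2 and 3 and at 89.0, 115 and 66.3 CPM in the controls (log2 fold change -0.72, SE 0.21, edgeR adjusted p = 0.12). Its knockdown 3 and control 3 were all but level.

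EBP, the sterol isomerase that follows, stood at 75.4, 82.8 and 97.3 CPM in knockdown 1, 2 and 3 against 113, 123 and 120 CPM in the controls, with no overlap (log2 fold change -0.48, SE 0.15, edgeR adjusted p = 0.126). DHCR7, the reductase of the last step in one branch, averaged 56.2 ± 11.3 CPM in the libraries labelled knockdown and 72.4 ± 4.56 CPM in the controls (log2 fold change -0.37). SC5D, the desaturase before it, averaged 129.8 ± 38.1 CPM in the libraries labelled knockdown and 133.1 ± 4.5 CPM in the controls, and knockdown 2 at 173 CPM lay above every control. CYP51A1, the lanosterol demethylase, averaged 7.43 ± 2.3 CPM in the libraries labelled knockdown and 8.74 ± 1.73 CPM in the controls (log2 fold change -0.24). Of its exon bases, 79.4% are shared with AC000120.2, annotated on the same strand, so its level is uncertain.

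Pairs of members with related functions were compared within each library as ratios of read counts. The 4 ratios were chosen after the values were seen and are given as a description. An exact permutation test gave p = 0.3 for INSIG1 over INSIG2 and 0.1 for the others. With 3 libraries per group 0.1 is the smallest p possible, so this test cannot decide a difference. TM7SF2 over LBR was 0.0192, 0.0446 and 0.0430 in knockdown 1, 2 and 3, against 0.0618, 0.0709 and 0.0836 in the controls (log2 difference -1.11). SREBF2 over SCAP was 0.872, 1.15 and 0.904 in knockdown 1, 2 and 3 against 1.21, 1.78 and 1.41 in the controls (log2 difference -0.58), and FDPS over GGPS1 was 1.05, 0.903 and 1.66 in knockdown 1, 2 and 3 against 2.13, 2.77 and 2.16 in the controls (log2 difference -1.0). INSIG1 over INSIG2 was 9.73, 9.72 and 16.3 in knockdown 1, 2 and 3 against 24.0, 15.6 and 12.3 in the controls, with overlap.

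In uptake and trafficking, STARD4 and NPC2 had lower means, and the libraries labelled knockdown reached both below and above the controls for NPC1 and MYLIP. STARD4, a carrier of cholesterol between membranes, averaged 71.7 ± 8.85 CPM in the libraries labelled knockdown and 110.8 ± 32.6 CPM in the controls (log2 fold change -0.63, edgeR adjusted p = 0.141), without overlap. Without control 2 its log2 fold change was -0.37. NPC2, which binds cholesterol inside the lysosome, stood at 38.1, 39.6 and 54.1 CPM in knockdown 1, 2 and 3, against 52.1, 68.2 and 91.7 CPM in the controls (log2 fold change -0.68, edgeR adjusted p = 0.137), with overlap of knockdown 3 and control 1. Its membrane partner NPC1 stood at 97.5, 145 and 92.5 CPM in knockdown 1, 2 and 3 against 123, 123 and 133 CPM in the controls (log2 fold change -0.18, 95% interval -0.59 to 0.22), and knockdown 2 was the highest library. Without knockdown 2 the log2 fold change of NPC1 was -0.42 (edgeR adjusted p = 0.13). MYLIP, a ubiquitin ligase that degrades lipoprotein receptors, averaged 59.5 ± 18.3 CPM in the libraries labelled knockdown and 53.4 ± 6.43 CPM in the controls, again with knockdown 2 the highest at 80.4 CPM.

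Efflux and storage genes showed no separation. ABCA1, which loads cholesterol onto apolipoproteins, had 4, 10 and 4 reads in knockdown 1, 2 and 3, against 4, 7 and 8 reads in the controls, and was too low to test. ABCG1, a second sterol exporter, stood at 3.05, 8.13 and 2.22 CPM in knockdown 1, 2 and 3 against 3.69, 3.86 and 4.68 CPM in the controls (log2 fold change 0.13, 95% interval -0.81 to 1.08). Knockdown 2 was the highest library and knockdown 3 the lowest. NR1H2, the liver X receptor beta that activates efflux genes, averaged 33.6 ± 6.05 CPM in the libraries labelled knockdown and 36.5 ± 2.49 CPM in the controls. SOAT1, which esterifies cholesterol for storage, averaged 96.2 ± 11.1 CPM in the libraries labelled knockdown and 102.6 ± 9.53 CPM in the controls, and its 95% interval ran from -0.43 to 0.24 on the log2 scale.

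Genes around the pathway were taken from 4 further lists, and edgeR called 0 of their genes at an adjusted p of 0.05 over all genes, so their counts are given at an unadjusted p of 0.05. The isoprenoid branch, which uses the same farnesyl diphosphate for prenylation, dolichol and coenzyme Q, had a median log2 fold change of 0.29 over 14 genes, with 10 positive values (51.8% of all tested genes), 3 higher (9.93%) and 0 lower (10.6%) at that level. Examples were PGGT1B, a subunit of a protein prenyltransferase, at 119, 95.3 and 72.0 CPM in knockdown 1, 2 and 3 against 63.8, 72.3 and 68.1 CPM in the controls, and RABGGTB, a subunit of the Rab prenylation enzyme, at 191, 172 and 158 CPM in knockdown 1, 2 and 3 against 143, 135 and 134 CPM in the controls. RABGGTB did not overlap between the groups, and PGGT1B did.

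All 6 lipoprotein receptors and partners had negative values (median log2 fold change -0.44), as did 48.2% of all tested genes, and 4 were lower at the unadjusted level, where 10.6% of all tested genes were. SCARB1, a receptor for high-density lipoprotein, stood at 36.4, 34.1 and 46.3 CPM in knockdown 1, 2 and 3, against 55.5, 56.8 and 50.7 CPM in the controls (log2 fold change -0.48, edgeR adjusted p = 0.143). VLDLR stood at 11.6, 15.4 and 23.7 CPM in knockdown 1, 2 and 3 against 27.8, 28.7 and 24.5 CPM in the controls (log2 fold change -0.67, edgeR adjusted p = 0.161). Neither overlapped between the groups.

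Of 16 genes of sterol transfer and lysosomal exit, 13 had a negative log2 fold change (48.2% of all tested genes), with a median of -0.10. At the unadjusted level 3 were lower (10.6%) and 0 higher (9.93%). The groups did not overlap in 5 that lay below the controls (14.3%) and in 1 that lay above (12.5%). Counts this small, here and in the next list, were not tested against these shares. OSBPL1A, an oxysterol-binding protein relative, stood at 41.3, 51.8 and 52.3 CPM in knockdown 1, 2 and 3 against 65.2, 83.1 and 66.3 CPM in the controls, and OSBPL5 at 2.43, 4.41 and 5.17 CPM in knockdown 1, 2 and 3 against 6.61, 7.27 and 7.05 CPM in the controls. The list of liver X receptor signalling and oxysterols had 11 tested genes and a median log2 fold change of -0.26. Of these, 7 had a negative value (48.2% of all tested genes) and 4 a positive one (51.8%). The groups did not overlap in 3 that lay below the controls (14.3%) and in 2 that lay above (12.5%). At the unadjusted level 0 were lower (10.6% of all tested genes) and 2 were higher (9.93%). These were CYP7B1, an oxysterol hydroxylase, at 21.1, 18 and 10.1 CPM in knockdown 1, 2 and 3 against 8.31, 9.70 and 8.66 CPM in the controls, and CYP46A1, a cholesterol hydroxylase known from neurons, at 2.43, 3.30 and 1.95 CPM in knockdown 1, 2 and 3 against 1.17, 1.30 and 1.61 CPM in the controls (edgeR adjusted p = 0.12 and 0.157). Neither overlapped between the groups.

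**Figure D4:**
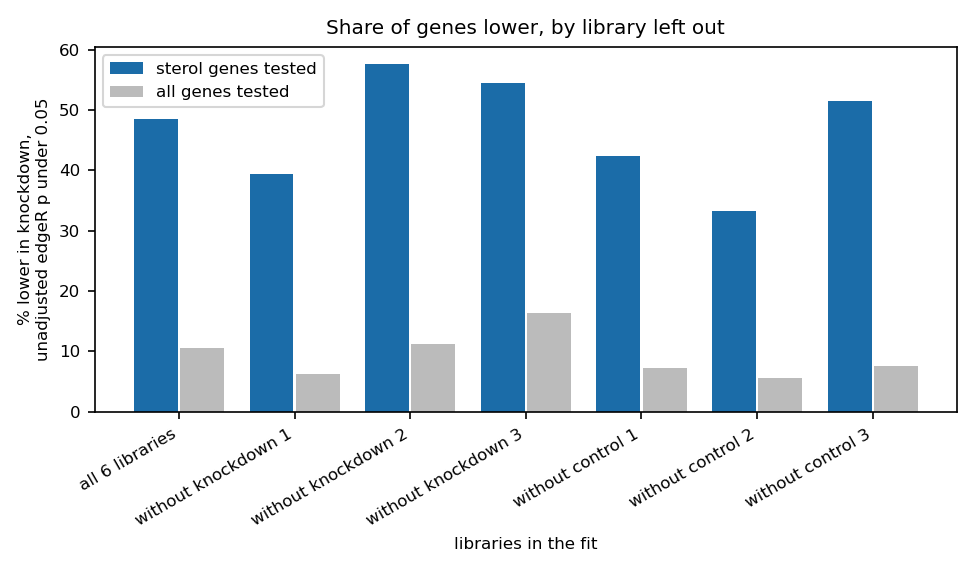
Share of genes lower in the libraries labelled knockdown at an unadjusted edgeR p of 0.05 (vertical axis, %), for the 33 tested sterol genes (blue) and all tested genes (grey), with all 6 libraries and with each left out (horizontal axis). The count of sterol genes runs from 11 without control 2 to 19 without knockdown 2, against 16 with all libraries.

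The count of lower sterol genes was thus read against the share of all genes in the same fit. Without knockdown 1 it was 13, against 6.32% of all tested genes, without knockdown 2 it was 19 (11.2%), and without knockdown 3 it was 18 (16.4%). With control 1, 2 or 3 left out it was 14 (7.33%), 11 (5.6%) and 17 (7.58%). The genes that edgeR called without knockdown 3, at an adjusted p of 0.05, were MSMO1, IDI1, FDFT1, NPC2, ACAT2, HSD17B7, EBP, NSDHL, TM7SF2, LSS, FDPS, STARD4, MVD and INSIG1. The 9 that DESeq2 called on all 6 libraries were among these 14, namely MSMO1, IDI1, ACAT2, HSD17B7, NSDHL, TM7SF2, LSS, FDPS and MVD, with adjusted p from 3.93e-05 for MVD to 0.0377 for MSMO1.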

How the data were processed

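Total RNA of HEK293 cells was made into stranded libraries after Ribo-Zero Gold treatment, per the labels' protocols. The authors deposited raw read counts per Ensembl gene for 3 libraries labelled knockdown and 3 controls, made with bcl2fastq 2.18, TopHat2 2.0.13 and HTSeq on hg38, per the submitters' processing notes; the annotation release and strand setting were not given in the sources used here. Without the strand setting, reads of overlapping antisense genes cannot be told apart. Shared exon bases were 9.23% of ACAT2 with TCP1, 26.5% with SOD2 and 33.9% with SOD2-OT1, all on the opposite strand. They were 14.8% of IDI1, 18.6% of FDPS and 15.0% of HMGCS1, also with antisense genes. TCP1 averaged 12000 reads per library, against 40.0, 36.2 and 0.833 for the antisense genes of IDI1, FDPS and HMGCS1. On the same strand, shared bases were 37.3% of GGPS1 with TBCE and 12.2% of MBTPS2 with YY2. FDPS has 8 named pseudogenes, CYP51A1 3 and HSD17B7 2, so their values are uncertain.

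The 5 HTSeq rows for unassigned reads stayed out of library sizes and tests. Symbols and exon lengths came from GENCODE 29, which matched 57055 of 60675 identifiers. The test was edgeR 4.0.16 under R 4.3.3 (filterByExpr, TMM factors, two-sided quasi-likelihood F test, Benjamini-Hochberg adjustment, threshold 0.05); log2 CPM used a prior count of 2, and FPKM is CPM per kilobase of merged exons. Intervals use the test's moderated degrees of freedom. The fit was tested on simulated data. Alternatives were DESeq2 1.42.0 and its size factors, upper-quartile factors, limma 3.58.1 (voom), 2 other filters, a replicate block, and leaving out each library. Every pair of replicates differed by more than sampling noise (chi-square statistic divided by degrees of freedom, 10.0 to 63.7). The members and lists were chosen with earlier results of these data known. Values per library are given for members with an unadjusted p under 0.01 and for 8 control points of the pathway. The other lists are named by their 2 genes of smallest p. Library values of NPC2 and ABCG1, and single libraries named for other genes, fall outside this rule and were chosen after the values were seen. Some genes of the pathway are not reported here.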

Additional observations from a re-analysis of the deposited data

How the results depend on the processing

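Other scalings and filters left the median log2 fold change of the sterol genes between -0.50 and -0.46, and leaving out 1 library left it between -0.53 and -0.37. With no filter edgeR called 694 genes higher and 880 lower, 13 of them sterol genes, all lower. DESeq2 called 559 higher and 586 lower, with 9 sterol genes lower, and gave no adjusted p for 1774 genes. Leave-one-out fits called between 0 and 1232 genes higher and between 0 and 1583 lower, and between 0 and 14 sterol genes lower, with the highest counts without knockdown 3; without control 3, 4 genes were lower. Sterol genes lying above the controls without overlap numbered 0 or 1 in these fits, and 1 with upper-quartile factors.

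Deviations of same-numbered libraries had correlations over genes of 0.114, -0.167 and -0.125 for numbers 1, 2 and 3. Those of differently numbered libraries ran from -0.077 for knockdown 1 with control 3 to 0.189 for knockdown 3 with control 2. The numbers were therefore not taken as pairs. With the replicate number as a block, edgeR called 6 genes higher and 13 lower and 0 sterol genes, and ABCG1 turned to -0.07.

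Of 429 single-gene values under alternatives, 12 changed sign, in 6 genes near 0. Leaving out 1 library gave -0.30 to 0.07 for PMVK, -0.31 to 0.10 for SC5D, -0.01 to 0.15 for SCAP, -0.13 to 0.31 for MYLIP, -0.64 to 0.45 for ABCG1 and -0.22 to 0.01 for NR1H2. PMVK was positive at 0.06, 0.07 and 0.03 without knockdown 2, knockdown 3 and control 1, and SC5D at 0.04 and 0.10 without knockdown 1 and 3. SCAP was negative without knockdown 3, and MYLIP, ABCG1 and NR1H2 changed sign without knockdown 2. SC5D was 0.00 with upper-quartile factors, and ABCG1 -0.08 by voom. The cause was not tested.

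Depth limits ABCA1, with at most 10 reads in a library, and the 3 libraries per group limit precision elsewhere.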
